A study of Mus musculus with 23 samples.

Results

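The genes described here are the Wnt ligands of the mouse, their Frizzled receptors, and the secreted, membrane and intracellular proteins that set the strength of the Wnt signal. They number 57 of the 21250 protein-coding genes that the GRCm38 annotation finds in the count tables. They were chosen by symbol alone: every protein-coding gene whose symbol starts with Wnt, Fzd, Sfrp, Dkk or Rspo, which gave 19, 10, 4, 5 and 4 genes, and Lrp5, Lrp6, Axin1, Axin2, Ctnnb1, Lef1, Tcf7, Tcf7l1, Tcf7l2, Nkd1, Nkd2, Notum, Rnf43, Wif1 and Znrf3. The rule uses no measured value, although the group was proposed with earlier results of these data known. Of the 57 genes, 42 had enough reads to be tested and 15 stayed below the filter. Of the 42, 39 passed the test in at least 1 of 7 comparisons. In 1 of these comparisons 67.5% of all 16087 genes tested passed and in another 56.6%, so the 39 is not a result about these genes.

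RNA was sequenced from 23 libraries of primary astrocytes, the star-shaped glia of the brain, taken from the neocortex of mice at postnatal day 3 and grown for 7 days. The mice were hybrids of BALB/c+C57BL/6 with 129/OLa+129/Sv+, and the labels name no altered allele. All cells, controls included, spent 24 h in 0.1% serum without thyroid hormone before the experiment, and the labels call the cultures more than 95% astrocytes. The study asked how such cells answer T3, the active thyroid hormone (triiodothyronine), and what remains of the answer when CHX, read here as the protein synthesis inhibitor cycloheximide, is present. There were 4 libraries each of 6 h control, 6 h with 10 nM T3, 6 h with 8 µg/ml CHX, 6 h with both (CHX given 30 min before T3) and 24 h control, and 3 of 24 h with 10 nM T3. The labels do not state that replicates are separate cultures, so the tests weigh differences against the spread of these libraries only, part of which may be technical.

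Wnt proteins are secreted lipid-modified ligands that bind Frizzled receptors and, in the β-catenin branch, the coreceptors Lrp5 and Lrp6. Binding inactivates a complex built on Axin that otherwise marks β-catenin for destruction, and the β-catenin that accumulates joins TCF/LEF proteins on DNA and switches on target genes, among them Axin2 and Nkd1, which dampen the signal. In the developing brain, Wnt7a and Wnt7b made by neural and glial cells are known for driving vessel growth and formation of the blood-brain barrier.

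Gene counts per library ran from 13843040 to 22997873. Hr, a standard T3-responsive gene, held 9.34 to 12.2 CPM (reads of the gene scaled to the same library total) in 6 h control and 193 to 226 with T3, 14.9 to 17.4 with CHX and 108 to 119.7 with CHX plus T3, and 16.7 to 18.8 in 24 h control and 219 to 247 with T3. Of the astrocyte markers, Gfap averaged 4108 CPM, Slc1a3 1798, Gja1 470 and S100b, the lowest, 3.95. The 2 most abundant markers of each other cell type lay below Gfap and Slc1a3, but not below every astrocyte marker. They were Olig1 409 and Olig2 117 CPM for the oligodendrocyte lineage, and Map2 338 and Stmn2 102 for neurons. For ependymal cells they were Foxj1 616 and Rsph1 25.3, and for vessels Pdgfrb 177 and Kdr 33.1. For meninges they were Col1a2 189 and Col1a1 106, and for microglia Ctss 40.7 and Itgam 10.6. File names place all 6 h control and 6 h T3 libraries and CHX replicates 1 to 3 on sequencing lane 5, 24 h T3 replicate 3 on lane 7, and all others on lane 6. Replicate 1 of 24 h T3 stood apart from the other 2 libraries of its group and had the largest share of alignments that were not unique, 42.3%, and results at 24 h are given with and without it where the call or the value turns on it.

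Levels can be compared between genes only per length, and are given first as CPM per kilobase of annotated exons, averaged over all 23 libraries. By this measure Ctnnb1, which encodes β-catenin itself, lay far above the rest at 363. Next came the secreted Wnt antagonist Sfrp1 (47.8), the receptor Fzd2 (34.3), the ligands Wnt7a (29.1) and Wnt5b (27.3), Fzd7 (26.4), Dkk3, a divergent Dickkopf family member (23.8), and Fzd1 (23.1). The order moved with the conditions: Fzd1 held 12.4 to 15.5 CPM per kilobase in 6 h control libraries and 48.8 to 55.9 with CHX, while Fzd2 held 44.5 to 54.3 and 15.8 to 20.3.

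**Figure D1:**
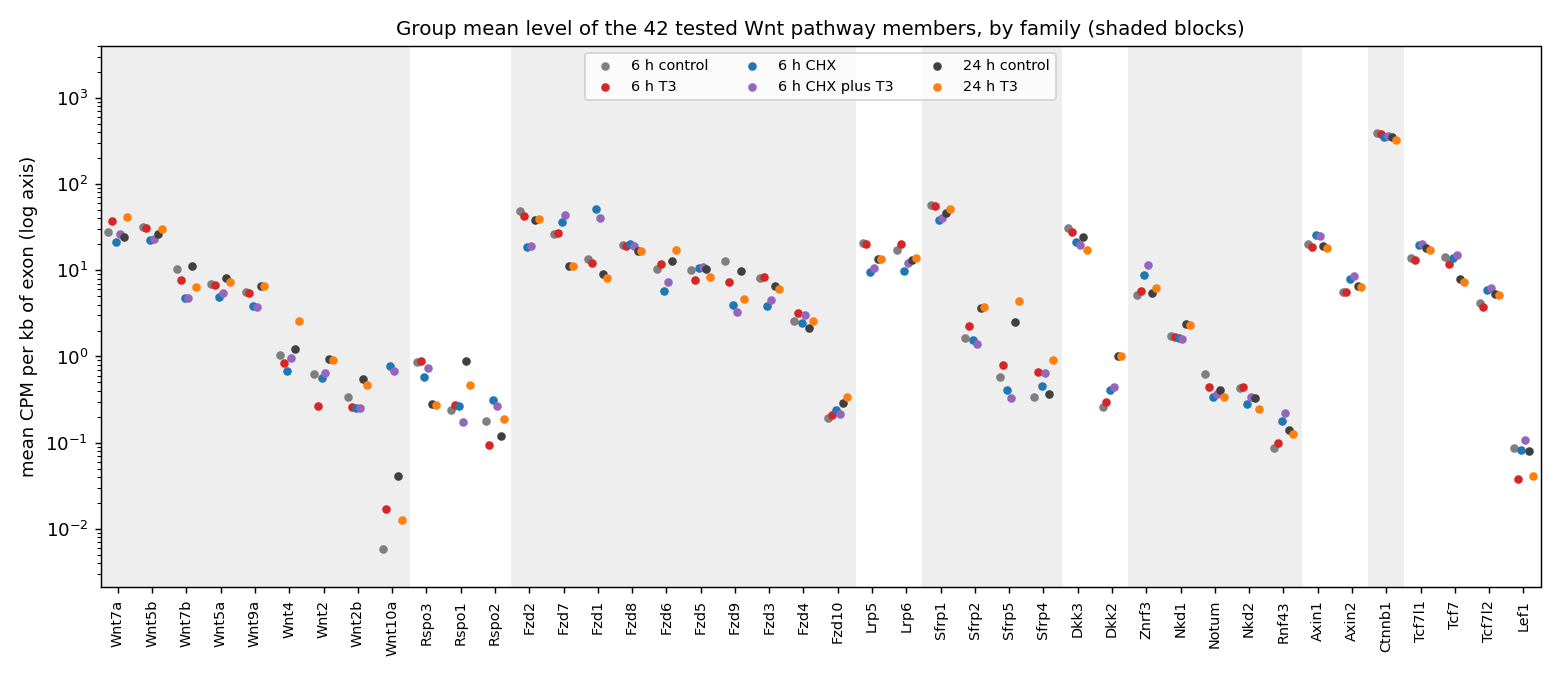
Mean level of each of the 42 tested genes in the 6 groups, in CPM per kilobase on a log axis, arranged by family, with 1 point per group. β-catenin stands highest, most families are led by 1 or 2 genes, and the R-spondins all lie below 1.

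Each family had its leading genes. Wnt7a supplied 30.5 to 43.1% of the summed per-length level of all 19 ligands, depending on the group, and Wnt5b 31.4 to 37.8%. Wnt7b (7.58 CPM per kilobase over all libraries), Wnt5a (6.54) and Wnt9a (5.22) followed, Wnt4 stood at 1.17, and Wnt2, Wnt2b and Wnt10a lay below 1. All 10 Frizzled genes passed the filter, from Fzd2 down to Fzd10 (0.244). Sfrp1 made up 85.0 to 95.7% of its family and Dkk3 94.1 to 99.1%. The R-spondins, secreted proteins that strengthen the signal by removing Rnf43 and Znrf3 from the cell surface, summed to only 1.15 to 1.45 CPM per kilobase in 6 h control libraries.

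Summed by family, the ligands held 80.5 to 86.1 CPM per kilobase in 6 h control, 85.1 to 92.0 with T3, 58.5 to 63.1 with CHX and 62.6 to 70.1 with both. At 24 h they held 74.5 to 87.5 in control and 89.8 to 107 with T3. At 24 h the lowest T3 library lay above the highest control library in this sum. The mean sum went from 79.33 to 96.21, and Wnt7a alone from 24.21 to 41.42, a rise as large as that of the sum. The sum therefore does not show a rise across the ligands. The Frizzled sum overlapped between 6 h control (138 to 169) and CHX (152 to 155), although its makeup changed, as described further on, and it was lower at 24 h (111 to 122 in control, 111 to 119.6 with T3). The coreceptor sum was 35.2 to 41.4 in 6 h control and 18.7 to 19.9 with CHX, without overlap. The sum of the further inhibitors Nkd1, Nkd2, Notum, Rnf43, Wif1 and Znrf3 was 6.52 to 9.16 in 6 h control, 10.6 to 11.9 with CHX and 13.1 to 16.3 with CHX plus T3. Znrf3 alone made up 63.9%, 77.3% and 81.1% of it, and Nkd2 and Notum fell with CHX.

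The 15 genes below the filter were near silent in these cultures. Wif1, a secreted Wnt-binding inhibitor, had the most reads, with at most 15 counts in a library and at least 1 in all 23. Wnt10b reached 12 counts, Wnt3a and Wnt11 reached 11, Wnt6 8, Wnt3 7, Wnt8a and Wnt8b 5, and Dkk1, Rspo4 and Wnt16 3 each. Dkkl1 and Wnt9b reached 2 counts, Wnt1 had 1 count in 1 library, and Dkk4 had none in any. A single count corresponds to 0.0421 to 0.0757 CPM, depending on the library, so differences in most of these genes were not detectable here. Lef1 and Fzd10 passed the filter without passing the test in any comparison, at 0.618 to 1.01 and 0.303 to 0.989 CPM in 6 h control, and so did Fzd4, a receptor also used by Norrin, at 15.8 to 19.9 CPM. The kit marks no strand, and a transcript on the opposite strand shares exon bases with Axin2, Ctnnb1, Fzd5, Fzd6, Lef1, Notum, Rspo3, Sfrp2, Tcf7l1, Wnt11, Wnt5a and Wnt7b, so reads from those bases cannot be told apart.

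Promoter sequence was available from RefSeq (table build GRCm38.p6) for 38 of the 57 genes, as 48 windows that run from 250 bases before to 50 after an annotated start. The sequences below are excerpts of these windows, cut so as to lie outside every annotated exon of the same strand, 5′ to 3′ on the gene's strand. Wnt7a (chr6:91411364-91411473, minus strand), Wnt4 (chr4:137277385-137277488, plus strand) and Fzd9 (chr5:135251231-135251297, minus strand) are shown because their RNA rose, rose and fell with T3 at 24 h, as described further on. They are all lower case because they hold none of the motifs searched, and 82.7%, 83.7% and 77.6% of their bases are G or C.
Wnt7a: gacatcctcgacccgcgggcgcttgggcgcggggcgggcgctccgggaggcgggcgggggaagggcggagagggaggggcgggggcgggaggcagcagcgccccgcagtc
Wnt4: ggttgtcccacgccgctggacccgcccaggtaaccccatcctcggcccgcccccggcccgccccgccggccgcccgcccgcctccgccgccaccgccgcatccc
Fzd9: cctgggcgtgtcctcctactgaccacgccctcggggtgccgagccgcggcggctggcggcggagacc
Tcf7 (chr11:52282596-52282655, minus strand) and 1 of 3 windows of Wnt5b (chr6:119449425-119449484, minus strand) are shown as examples of windows with a match. Both of these excerpts lie inside the annotated span of their gene. In Tcf7 the capitals mark TGACCT, which is AGGTCA on the other strand, and in Wnt5b they mark CTTTGAT.
Tcf7: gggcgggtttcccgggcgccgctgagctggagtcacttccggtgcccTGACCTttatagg
Wnt5b: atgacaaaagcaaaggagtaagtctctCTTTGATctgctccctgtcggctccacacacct
AGGTCA, the half-site that nuclear receptors such as the T3 receptors bind, was searched on both strands of the full windows. It occurred in 16.3% of all 32817 windows and in 3 of the 48 of these genes (6.25%), those of Dkkl1, Tcf7 and Wnt16. Of the 12 genes that passed the test with T3, 7 had a window (Fzd1, Fzd5, Fzd9, Sfrp5, Wnt2, Wnt4 and Wnt7a), and 0 of these held it. The same 6 letters repeated in tandem with 4 free bases between the copies occurred in 0.0152% of all windows and in 0 of the 48. CTTTGAT, a form of the TCF/LEF site, was in 3.73% of all windows and in those of Wnt11 and Wnt5b, and CTTTGAA, another form, in 5.14% and in that of Dkk1. The median window of these genes was 67.0% G or C, against 52.7% for all windows. A match describes these letters only and is not a measured binding site, and bases farther from the start were not searched.

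T3 changed a small number of these genes, and in both directions within each main class. Among the ligands, Wnt7a rose and Wnt7b fell at both times, and Wnt4 rose by 24 h. Among the receptors, Fzd9 fell at both times and Fzd6 rose at 24 h. Among the secreted inhibitors, Sfrp4 rose at both times, Sfrp5 rose and Dkk3 fell at 24 h. At 6 h, 6 of the 42 tested genes passed an adjusted p under 0.05, which is 14.3%, against 3.75% of all 16087 genes tested. Of these, 2 were higher (4.76%, against 2.60% of all genes) and 4 lower (9.52%, against 1.14%), and the median log2 change was -0.026, against 0.0028 for all genes. At 24 h, 8 passed (19.0%, against 7.09% of all genes), 5 higher (against 4.41%) and 3 lower (against 2.68%), with a median of -0.034, against 0.0041. Without T3 replicate 1, 8 passed again, with Fzd4 in place of Sfrp5. With CHX present, 3 passed (7.14%, against 1.29%), Fzd6 and Znrf3 higher (against 1.16%) and Fzd1 lower (against 0.131%).

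Wnt7a (ENSMUSG00000030093, chr6:91363981-91411363, minus strand) stood first among the ligands per length in the mean over all libraries and in the 3 groups given T3, and behind Wnt5b in the other 3 groups (27.59 against 31.95 CPM per kilobase in 6 h control). Its 4 control libraries at 6 h held 88.0, 79.5, 82.2 and 100.3 CPM, and the 4 T3 libraries 118, 118, 122 and 114 (log2 fold change 0.43, SE 0.082, edgeR adjusted p = 0.00208). At 24 h control libraries held 77.6, 65.7, 90.7 and 73.2 CPM and T3 libraries 146, 128 and 120.3 (log2 fold change 0.77, SE 0.088, adjusted p = 1.25e-06), a 1.71-fold level. Every T3 library lay above every control library at both times. With CHX the 4 control values were 63.2, 65.6, 69.4 and 71.7 and the 4 T3 values 80.4, 81.9, 78.5 and 90.5, again without overlap, but the change of 0.30 (SE 0.083, adjusted p = 0.0886) missed the threshold. In these bulk samples a change in the share of a cell type and a change of RNA per cell cannot be told apart.

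Wnt7b, its closest relative, moved the other way. It fell from 50.4, 50.8, 52.9 and 46.6 CPM to 40.2, 37.3, 37.9 and 37.0 at 6 h (log2 fold change -0.40, SE 0.087, adjusted p = 0.00722), and from 52.5, 60.9, 50.2 and 54.7 to 36.1, 30.0 and 29.0 at 24 h (log2 fold change -0.79, SE 0.095, adjusted p = 2.65e-06). The groups did not overlap at either time. With CHX, Wnt7b stood at 21.4 to 27.7 CPM without and 20.0 to 25.7 with T3, a log2 difference of 0.011 (SE 0.092, adjusted p = 0.973). The ratio of Wnt7a to Wnt7b per length was 2.40 to 3.33 in 6 h control and 4.52 to 4.98 with T3, and 1.67 to 2.79 in 24 h control and 6.23 to 6.60 with T3. The opposite-strand transcript AU022754 shares 324 exon bases with Wnt7b.

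Wnt4, a ligand best known from kidney and female reproductive development, rose with T3 at 24 h. Its level then was 4.65, 4.59, 5.53 and 5.71 CPM in control libraries and 13.2, 8.87 and 10.6 with T3, 2.12 times as high (log2 fold change 1.08, SE 0.16, adjusted p = 6.44e-05). At 6 h the values were 4.45, 4.83, 4.71 and 3.63 CPM in control and 3.23, 2.82, 4.13 and 3.86 with T3, which overlap (log2 fold change -0.34, SE 0.17, adjusted p = 0.337). The T3 effect on Wnt4 was larger at 24 h than at 6 h by 1.42 on the log2 scale (SE 0.24, adjusted p = 0.00386). It was the only 1 of the 42 genes to pass that test of the difference (2.38%, against 0.839% of all genes). Of all genes, 0.541% had a larger and 0.298% a smaller effect at 24 h. In that test 8 of the 42 had an unadjusted p under 0.05. The share of all genes at that cut was not counted, so the 8 is not a result about these genes. Without 24 h T3 replicate 1, the highest library, the change at 24 h was 0.93 (adjusted p = 0.000574).

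Wnt2, another ligand, is named here after its values were seen, since it lies outside the 30 genes with the smallest p. It fell at 6 h from 1.67, 0.835, 1.11 and 2.04 CPM to 0.512, 0.542, 0.649 and 0.678 (log2 fold change -1.21, SE 0.28, adjusted p = 0.0115), and the groups did not overlap. These are low levels, and leaving out 6 h control replicate 4, the highest, gave an adjusted p of 0.0512. At 24 h Wnt2 stood at 1.54 to 2.92 CPM in control and 1.81 to 2.27 with T3 (log2 fold change -0.039, SE 0.23, adjusted p = 0.948). The other tested ligands, Wnt5a, Wnt5b, Wnt9a, Wnt2b and Wnt10a, did not pass the test in any T3 comparison. Wnt5a and Wnt5b, best known for signals that do not go through β-catenin, changed at 6 h by -0.063 (95% interval -0.24 to 0.11) and -0.062 (-0.25 to 0.13) on the log2 scale, and Wnt9a by -0.038 (-0.20 to 0.12).

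**Figure D2:**
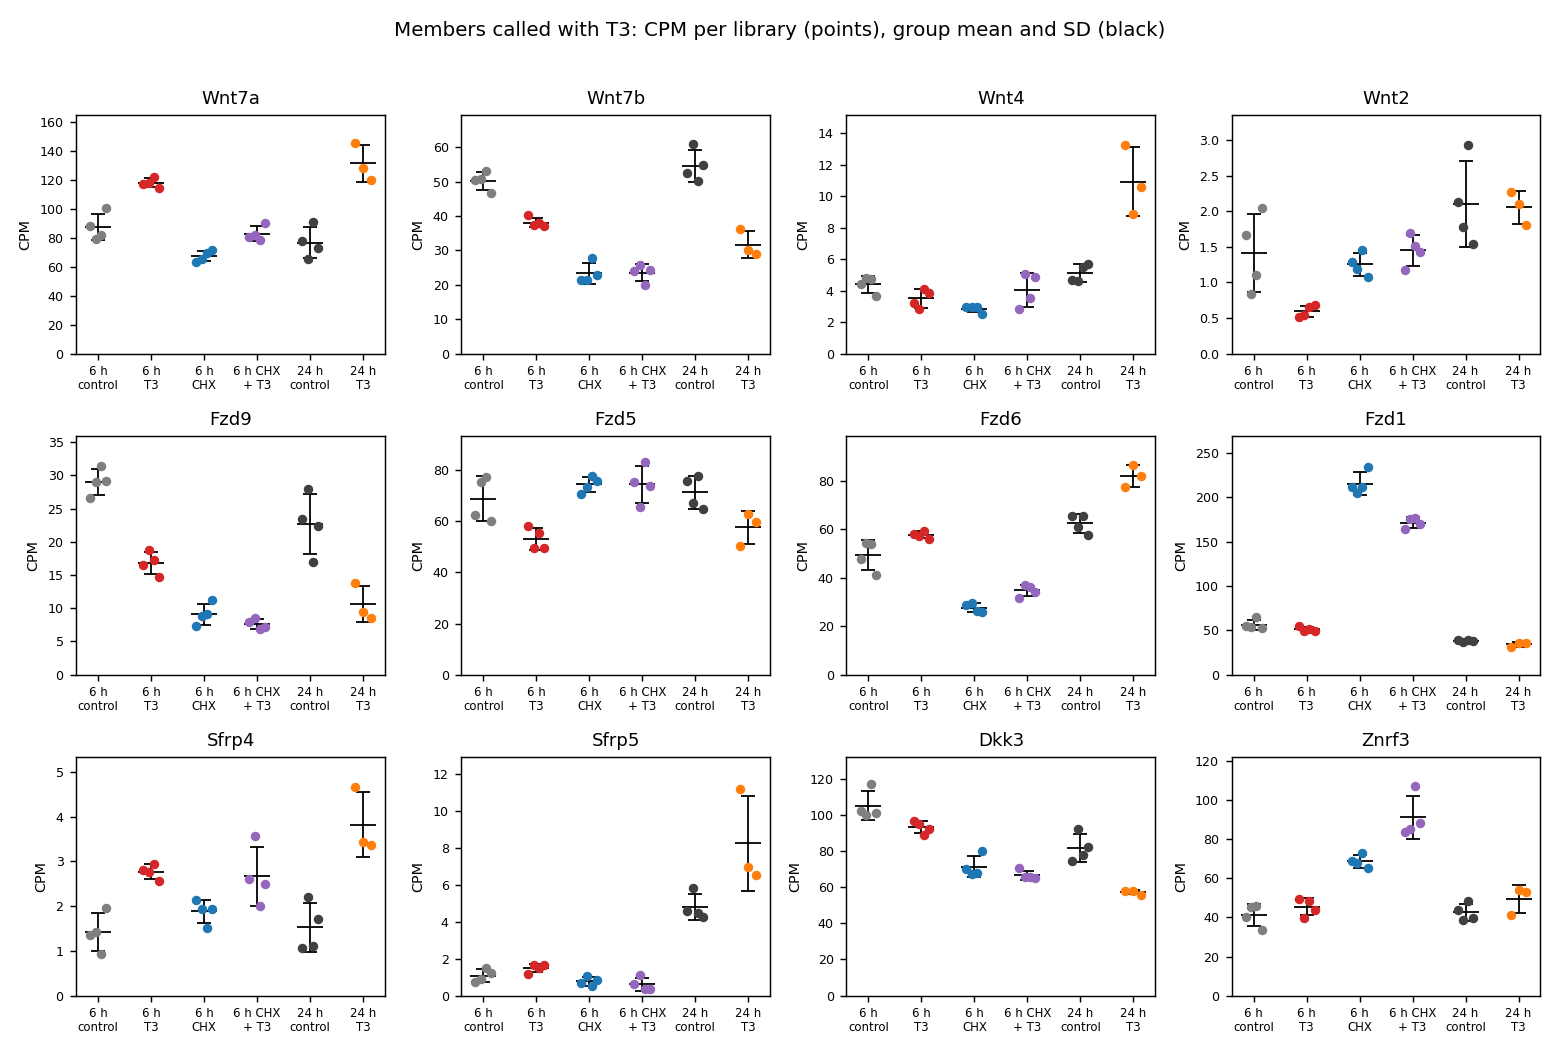
CPM of the 12 genes that passed the test in at least 1 T3 comparison, in each library of the 6 groups, with the group mean and SD. Wnt7a, Wnt4, Fzd6, Sfrp4 and Sfrp5 sit higher with T3 at 24 h, and Wnt7b, Fzd9 and Dkk3 lower.

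The receptor Fzd9, known from neural progenitors, showed the largest fall among the receptors. It fell from 26.5, 29.0, 31.4 and 29.1 CPM to 16.4, 18.8, 17.2 and 14.7 at 6 h (log2 fold change -0.79, SE 0.14, adjusted p = 0.000852), and from 23.5, 28.0, 17.0 and 22.3 to 13.7, 9.49 and 8.58 at 24 h, 0.462 of the control level (log2 fold change -1.11, SE 0.16, adjusted p = 2.63e-05). Neither pair of groups overlapped. With CHX, which lowered Fzd9 by itself, the values were 7.34, 8.83, 9.06 and 11.2 CPM without T3 and 7.96, 8.49, 6.81 and 7.21 with it (log2 fold change -0.26, SE 0.16, adjusted p = 0.505). Those groups overlap.

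Fzd6, a receptor with a role in planar cell polarity, was higher with T3 in all 3 comparisons without overlap, and passed the test in 2. Control and T3 libraries held 65.6, 61.1, 65.4 and 57.7 and 77.6, 86.4 and 82.1 CPM at 24 h (log2 fold change 0.39, SE 0.078, adjusted p = 0.0015), and 28.8, 29.6, 26.1 and 26.0 and 31.8, 37.0, 36.1 and 34.2 with CHX (log2 fold change 0.33, SE 0.077, adjusted p = 0.0241). At 6 h without CHX they held 47.5, 54.3, 54.0 and 41.2 and 58.2, 57.2, 59.4 and 56.0 (log2 fold change 0.23, SE 0.074, adjusted p = 0.0941), which missed the threshold. Leaving out CHX replicate 4, the only CHX library on the lane of the CHX plus T3 libraries, gave an adjusted p of 0.114 for the comparison with CHX. That call was lost in 7 of 33 alternatives. Among them were leaving out CHX replicate 3 and leaving out CHX plus T3 replicate 2, 3 or 4. Leaving out 24 h control replicates 2 and 4 gave an adjusted p of 0.0685 at 24 h. In both libraries the summed markers of astrocytes, microglia, oligodendrocyte lineage, neurons, meninges and ependymal cells were highest within the group. Those of vessels were lowest. The transcript Gm26704 shares 152 exon bases with Fzd6 on the opposite strand.

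Fzd5, named here after its values were seen, fell at 6 h from 62.5, 75.5, 77.2 and 60.1 CPM to 58.1, 49.6, 55.4 and 49.3 (log2 fold change -0.38, SE 0.090, adjusted p = 0.0156). The groups did not overlap, but the call was lost without 6 h control replicate 2, control replicate 3 or T3 replicate 4, with an adjusted p of at most 0.0762. At 24 h Fzd5 held 75.7, 67.1, 77.8 and 64.7 and 50.2, 62.9 and 59.6 CPM, without overlap (log2 fold change -0.31, SE 0.097, adjusted p = 0.0553). With CHX the values were 70.7 to 77.8 CPM without and 65.5 to 83.0 with T3, a log2 difference of 0.0015 (SE 0.088, adjusted p = 0.996). The transcript Gm38058 shares 1233 exon bases with Fzd5 on the opposite strand. Fzd1 passed with T3 only where CHX was present: 212, 205, 211 and 234 CPM without T3 and 164, 175, 177 and 170.3 with it (log2 fold change -0.33, SE 0.062, adjusted p = 0.0036). In the same gene T3 without CHX gave -0.14 (SE 0.066, adjusted p = 0.301) at 6 h and -0.15 (SE 0.074, adjusted p = 0.266) at 24 h, and the difference between the effects with and without CHX was -0.19 (SE 0.091, adjusted p = 0.353), short of the threshold.

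Fzd2, Fzd3, Fzd4, Fzd7, Fzd8 and Fzd10 did not pass the test with T3 in any comparison. Fzd4 was higher with CHX plus T3 (19.8 to 21.2 CPM) than with CHX (14.5 to 17.6 CPM) without overlap, with an adjusted p of 0.275, and at 24 h it passed only without T3 replicate 1 (0.45, adjusted p = 0.0196). The coreceptors Lrp5 and Lrp6 changed at 6 h by -0.021 (95% interval -0.15 to 0.11) and 0.23 (0.0087 to 0.46) on the log2 scale. Neither passed (adjusted p = 0.91 and 0.276). At 24 h, T3 replicate 1 lay apart in Lrp6, with 135, 215 and 215 CPM over replicates 1 to 3, against 165 to 191 in control. In Fzd3 the same library was low, with 44.8, 90.2 and 97.3 CPM against 76.3 to 87.6 in control.

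Sfrp4, a secreted decoy that shares the Wnt-binding domain of the receptors, rose from 1.36, 1.43, 0.931 and 1.97 CPM to 2.82, 2.76, 2.95 and 2.56 at 6 h (log2 fold change 0.98, SE 0.23, adjusted p = 0.0149) and from 1.07, 2.21, 1.12 and 1.71 to 4.66, 3.44 and 3.37 at 24 h (log2 fold change 1.30, SE 0.23, adjusted p = 0.000501). Neither pair overlapped. At 6 h the call was lost without control replicate 3, the lowest library (adjusted p = 0.0706). With CHX the level was 1.52 to 2.13 CPM without and 1.999 to 3.57 with T3 (log2 fold change 0.49, SE 0.22, adjusted p = 0.35). Sfrp5, of the same family, rose at 24 h from 4.59, 5.83, 4.46 and 4.28 to 11.2, 6.97 and 6.56 CPM (log2 fold change 0.77, SE 0.21, adjusted p = 0.0273). Its highest library was T3 replicate 1, and without it the change was 0.50 with an adjusted p of 0.222. Sfrp1, the abundant member, was 209 to 261 CPM in 6 h control and 237 to 254 with T3, and changed by -0.017 (SE 0.059, adjusted p = 0.919). Sfrp2 was higher with T3 at 6 h without overlap, 3.09, 3.58, 3.37 and 4.01 against 5.07, 5.09, 4.96 and 4.48 CPM, but just missed the threshold (log2 fold change 0.49, SE 0.14, adjusted p = 0.0518).

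Dkk3 fell at 24 h from 74.4, 91.9, 77.8 and 82.0 to 57.8, 57.9 and 55.8 CPM (log2 fold change -0.51, SE 0.072, adjusted p = 2.63e-05), so that T3 libraries were all below the controls. At 6 h it was 102, 100.03, 117 and 101 CPM in control and 96.5, 94.8, 88.7 and 92.2 with T3, also without overlap (log2 fold change -0.18, SE 0.065, adjusted p = 0.148). Meningeal and fibroblast markers summed to 482 to 697 CPM in 24 h control and 414 to 454 with T3, and their part in the results at 24 h was not tested. At 6 h the summed ependymal markers were 399 to 524 CPM in control and 549.6 to 615 with T3, and the astrocyte markers 10923 to 11743 and 12354 to 12658; their part in the results at 6 h was not tested. Sntn, a cilia gene of the ependymal list, was at 0 in both of these groups, as was Slc6a13 of the meningeal list.

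Znrf3, a membrane ubiquitin ligase that removes Frizzled receptors from the cell surface, passed the test with T3 only where CHX was present, rising from 68.7, 68.0, 73.1 and 65.2 to 83.5, 85.5, 107 and 88.3 CPM (log2 fold change 0.41, SE 0.099, adjusted p = 0.037). Without CHX the levels at 6 h were 33.5 to 45.7 CPM in control and 39.9 to 49.2 with T3. The difference between the effects did not pass (0.27 on the log2 scale, SE 0.14, adjusted p = 0.443). The call with CHX was lost in 7 of 33 alternatives, with an adjusted p of up to 0.212. These were lane as a term, and leaving out CHX replicate 1, 2 or 4 or CHX plus T3 replicate 2, 3 or 4. Without CHX replicate 4 the adjusted p was 0.14. Fzd1 was the only 1 of the 42 genes to pass in this comparison with sequencing lane in the model. The same held without CHX replicate 4 and without CHX plus T3 replicate 2, 3 or 4.

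Axin2 and Nkd1, targets of β-catenin that dampen the signal, did not pass the test with T3, while 3 other known targets did and are given further on. Axin2, also a scaffold of the destruction complex, held 28.4, 30.6, 35.1 and 27.7 CPM in 6 h control and 35.8, 28.0, 28.9 and 29.9 with T3, a log2 difference of 0.0084 (95% interval -0.16 to 0.18). At 24 h it held 37.0, 35.7, 36.9 and 33.8 and 31.7, 33.8 and 38.9, a difference of -0.040 (-0.22 to 0.14). Nkd1, an inhibitor that binds Dishevelled, differed by -0.019 at 6 h (-0.30 to 0.26) and -0.028 at 24 h (-0.31 to 0.26). Lef1 had low levels, 0.618, 1.01, 0.756 and 0.681 CPM in control and 0.307, 0.271, 0.177 and 0.574 with T3 at 6 h, which did not overlap (log2 fold change -1.18, SE 0.38, adjusted p = 0.0876). Tcf7, another TCF/LEF factor, was 36.5, 34.1, 38.6 and 39.6 and 32.9, 29.8, 30.6 and 31.7 CPM, also without overlap and short of the threshold (log2 fold change -0.25, SE 0.078, adjusted p = 0.0769). Ctnnb1 itself changed by -0.033 (-0.12 to 0.049) at 6 h, and Rspo1 at 24 h by -0.91 (SE 0.29, adjusted p = 0.0587), from 1.95, 1.94, 1.28 and 1.71 to 0.818, 0.872 and 1.01 CPM.

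**Figure D3:**
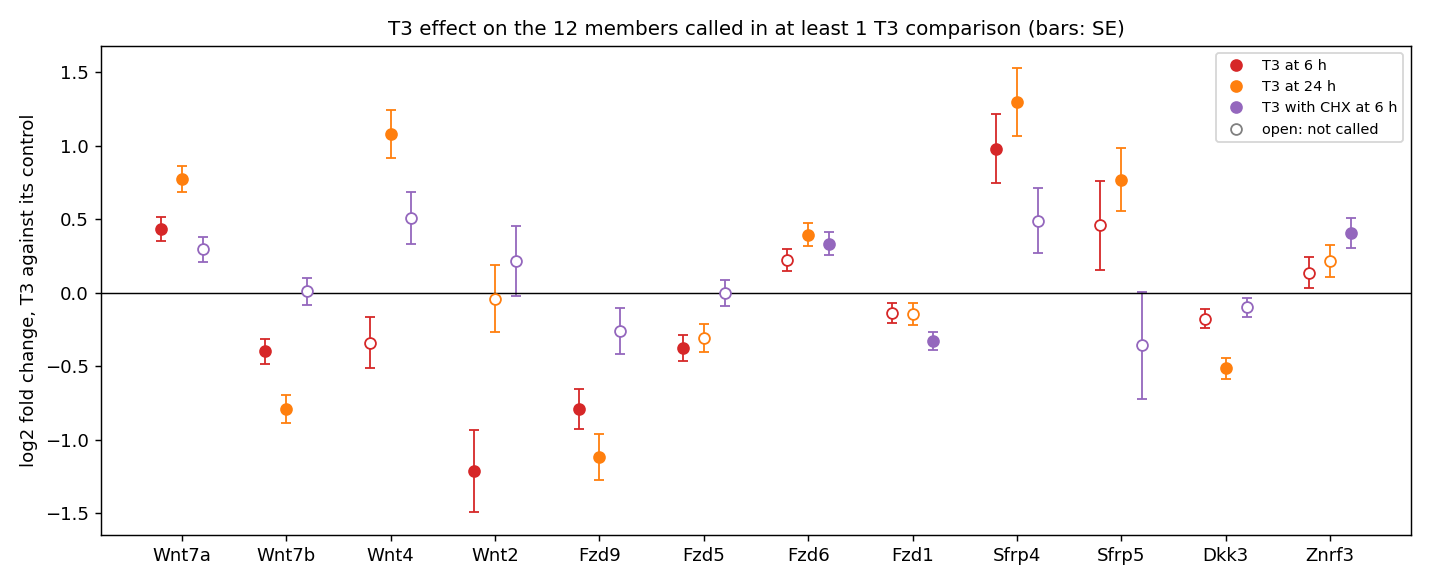
Log2 fold changes with T3, with SE bars, at 6 h, at 24 h and at 6 h with CHX, for the 12 genes that passed in at least 1 of these comparisons. Genes are on the horizontal axis and the log2 change on the vertical axis; filled points passed an adjusted p under 0.05 and open points did not. Wnt7a and Sfrp4 lie above 0 and Wnt7b and Fzd9 below it at both times without CHX.

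Whether CHX altered the T3 effect was tested by the difference between the effects with and without it. In edgeR 0 of the 42 genes passed (against 1.22% of all genes, 0.584% upward and 0.634% downward). In DESeq2 4 passed (Tcf7, Wnt2, Wnt4 and Wnt7b), against 521 of all 14214 genes tested there. In edgeR 10 had an unadjusted p under 0.05. The share of all genes at that cut was not counted, so the 10 is not a result about these genes. The 10 genes were Wnt2, Tcf7, Wnt4, Wnt7b, Sfrp2, Lef1, Fzd5, Fzd9, Fzd7 and Fzd1. Wnt2 had the smallest adjusted p: it fell by 1.21 on the log2 scale without CHX and changed by 0.22 with it, a difference of 1.43 (SE 0.37, adjusted p = 0.0535). For Wnt7b the difference was 0.41 (SE 0.13, adjusted p = 0.105), and for Wnt4 0.85 (SE 0.25, adjusted p = 0.0867).

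CHX alone moved most of these genes, as it moved most genes in the cells. At 6 h, 29 of the 42 passed (69.0%, against 67.5% of all genes), 11 higher (26.2%, against 37.0%) and 18 lower (42.9%, against 30.6%), with a median log2 change of -0.12, against 0.063. A share so near that of all genes is not a result about these genes, and what follows describes single genes by size and direction. Fzd1 rose to become the most abundant receptor per length with CHX alone (33.5% of the family sum) while Fzd2 fell, both coreceptors fell, 6 of 9 tested ligands fell, and the scaffold genes, Znrf3 and 2 of 4 TCF genes rose. The CHX plus T3 and T3 libraries form a separate pair with no library in common, although on different lanes. There, 28 of the 29 genes had the same direction of means, 25 of them without overlap, and the exception was Wnt4. The same count was not made over all genes, so it is not a result about these genes.

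Among the ligands, the fall was largest in Wnt7b, from 50.4, 50.8, 52.9 and 46.6 CPM in control to 21.4, 21.4, 27.7 and 22.9 with CHX (log2 fold change -1.11, SE 0.089, adjusted p = 6.09e-11). Wnt9a held 18.9, 17.9, 19.8 and 17.5 CPM in control and 11.4, 13.2, 12.8 and 13.9 with CHX (log2 fold change -0.53, SE 0.079, adjusted p = 1.83e-06), and Wnt5a 50.9, 55.7, 61.3 and 50.9 and 38.5, 37.1, 36.0 and 40.7 (log2 fold change -0.52, SE 0.087, adjusted p = 1.01e-05). None of these groups overlapped. Wnt5b fell from 86.9, 81.4, 88.6 and 82.3 to 62.1, 59.7, 63.9 and 51.6 CPM (log2 fold change -0.52, SE 0.093, adjusted p = 2.93e-05), Wnt4 from 4.45, 4.83, 4.71 and 3.63 to 2.98, 2.96, 2.98 and 2.53 (log2 fold change -0.63, SE 0.18, adjusted p = 0.00332), and Wnt7a from 88.0, 79.5, 82.2 and 100.3 to 63.2, 65.6, 69.4 and 71.7 (log2 fold change -0.37, SE 0.084, adjusted p = 0.000351). In each of them the highest CHX library was below the lowest control library.

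Wnt10a, a ligand known from skin, hair and tooth development, went the other way from near silence. Its 4 control libraries held 0, 0, 0.0582 and 0 CPM, which is 1 read in all, and the 4 CHX libraries 1.74, 1.99, 2.36 and 1.62, which is 144 reads. The ratio of these counts was 121.5, with an exact 95% interval of 21.47 to 4834 that covers counting error only. CHX plus T3 against T3 gave 120 and 3 reads, a ratio of 41.97 (14.02 to 206.4). Wnt10a passed the filter only through the CHX groups, so its call (adjusted p = 1.03e-09) followed from being high there. Of the untested ligands, Wnt10b, Wnt3a and Wnt11 are named here after their values were seen. Wnt10b had 26 reads with CHX (2 to 12 per library) and 0 in control, 7.315-fold against a set floor of 3 counts over the group. It had 30 with CHX plus T3 against 2 with T3 (ratio 15.74, 3.994 to 135.9). Wnt3a had 27 reads against 0, 7.597-fold against that floor, and 23 against 0, 8.045-fold. Wnt11 had 16 against 4 (3.376, 1.089 to 13.88) and 28 against 5 (5.876, 2.24 to 19.49). Values against the floor are not bounds, and the intervals cover counting error only. Wnt3, Wnt6, Wnt16, Wnt8a and Wnt8b had 3, 5, 4, 1 and 1 reads with CHX and 3, 5, 3, 1 and 1 in control.

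The receptors exchanged places. Fzd1, whose gene (ENSMUSG00000044674) lies at chr5:4753839-4758035, rose from 54.5, 53.7, 65.0 and 52.2 CPM to 212, 205, 211 and 234, 3.82-fold (log2 fold change 1.93, SE 0.066, adjusted p = 5.53e-18). Fzd2, of the same subfamily, fell from 172, 180.5, 199 and 163 to 72.2, 74.3, 69.99 and 58.0 CPM (log2 fold change -1.38, SE 0.077, adjusted p = 7.01e-14). The ratio of Fzd1 to Fzd2 per length was 0.26 to 0.285 in 6 h control, 0.257 to 0.307 with T3, 2.41 to 3.53 with CHX and 2.08 to 2.32 with CHX plus T3, so Fzd1 passed from well below Fzd2 to above it. Fzd7, the third of the subfamily, rose from 120.2, 111, 134 and 107 to 168, 169, 163 and 150.0 CPM (log2 fold change 0.46, SE 0.075, adjusted p = 7.7e-06). Fzd9 fell from 26.5, 29.0, 31.4 and 29.1 to 7.34, 8.83, 9.06 and 11.2 CPM (log2 fold change -1.67, SE 0.14, adjusted p = 2.2e-10), the largest fall of a receptor.

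Fzd3 and Fzd6, the pair known for planar cell polarity and axon guidance, both fell. Fzd3 went from 104, 107, 108 and 102 to 50.4, 48.8, 51.5 and 47.8 CPM (log2 fold change -1.09, SE 0.14, adjusted p = 3.48e-07), and Fzd6 from 47.5, 54.3, 54.0 and 41.2 to 28.8, 29.6, 26.1 and 26.0 (log2 fold change -0.84, SE 0.077, adjusted p = 6.17e-10). Fzd4, Fzd5, Fzd8 and Fzd10 did not pass. The coreceptors fell together: Lrp5 from 185, 195, 225 and 193 to 90.6, 99.7, 95.1 and 89.7 CPM (log2 fold change -1.09, SE 0.066, adjusted p = 2.7e-13), and Lrp6 from 222, 238, 249 and 226 to 129, 133, 133 and 146 (log2 fold change -0.79, SE 0.11, adjusted p = 7.34e-07). Every CHX library lay below every control library in all 4 of these genes.

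**Figure D4:**
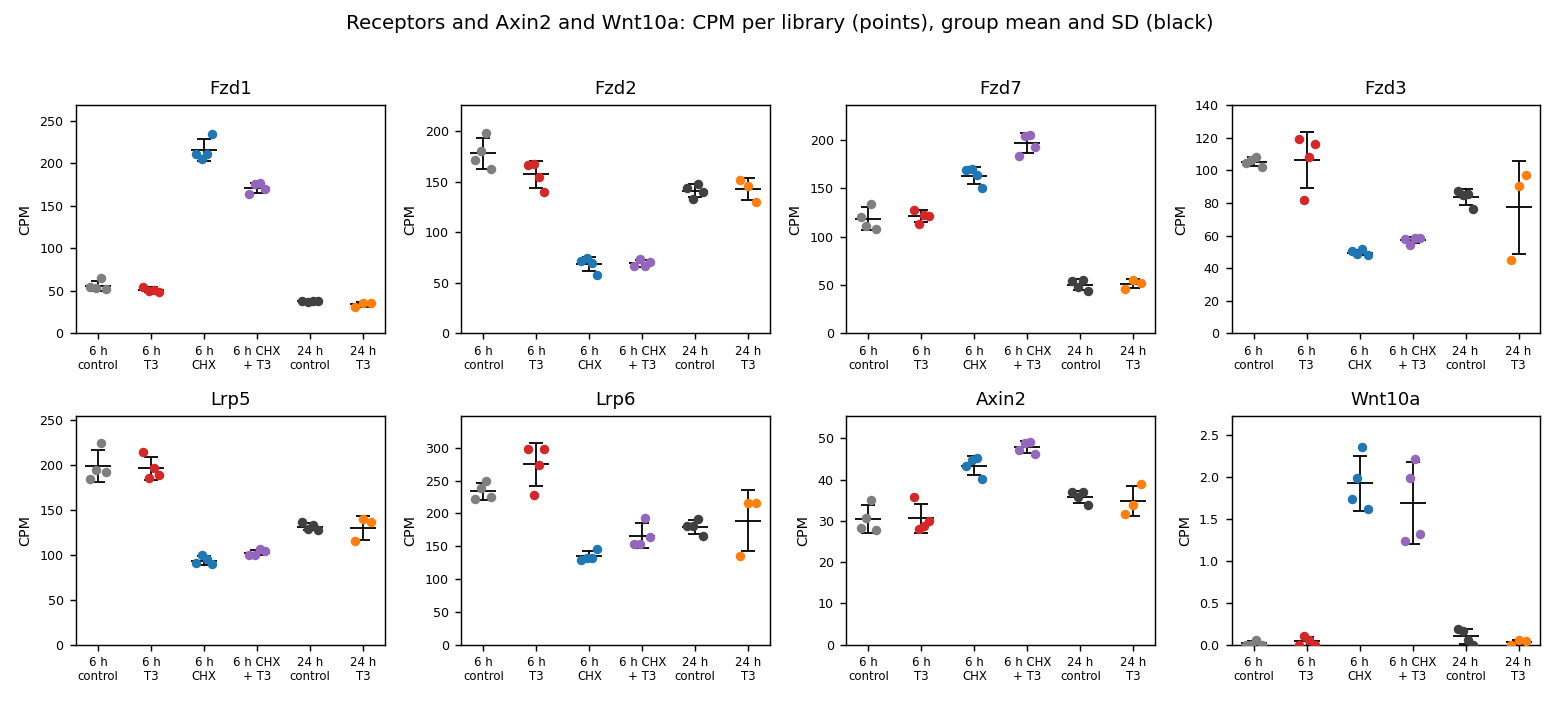
CPM of Fzd1, Fzd2, Fzd7, Fzd3, Lrp5, Lrp6, Axin2 and Wnt10a in each library of the 6 groups, with the group mean and SD. Fzd1 and Wnt10a are high in both CHX groups, and Fzd2, Fzd3, Lrp5 and Lrp6 are low in both.

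Of the secreted inhibitors, Sfrp1 fell from 259, 259, 261 and 209 to 172, 174, 171 and 159 CPM (log2 fold change -0.55, SE 0.059, adjusted p = 1.17e-08) and Dkk3 from 102, 100.03, 117 and 101 to 69.97, 67.4, 67.9 and 79.9 (log2 fold change -0.56, SE 0.066, adjusted p = 4.74e-08). Dkk2, which binds the coreceptors, held 0.989, 1.31, 0.872 and 0.681 CPM in control and 1.79, 1.94, 0.844 and 1.56 with CHX (log2 fold change 0.66, SE 0.26, adjusted p = 0.029). Its groups overlap, and the call was lost in 8 of 33 alternatives, with an adjusted p of at most 0.0994. Notum, an enzyme that strips the lipid from Wnt proteins, fell, with 1.31 to 1.98 CPM in control and 0.485 to 0.992 with CHX (log2 fold change -0.91, SE 0.30, adjusted p = 0.00918), and antisense transcripts overlap its exons. Rspo3 held 2.72, 2.504, 2.79 and 2.65 and 2.18, 1.24, 2.64 and 1.08 CPM (log2 fold change -0.58, SE 0.21, adjusted p = 0.0165), with overlapping groups, and the call was lost without CHX replicate 4 (adjusted p = 0.0774). Rspo2 rose, with 0.681 to 1.11 CPM in control and 1.13 to 2.53 with CHX (log2 fold change 0.81, SE 0.30, adjusted p = 0.0225), a call that was lost without 6 h control replicate 4 or CHX replicate 1, with an adjusted p of up to 0.168.

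Of Nkd1, Nkd2, Notum, Rnf43 and Znrf3, 2 rose with CHX, 2 fell and 1 did not pass (median log2 change -0.077), and both Axin genes rose. Znrf3 went from 40.1, 45.2, 45.7 and 33.5 to 68.7, 68.0, 73.1 and 65.2 CPM (log2 fold change 0.74, SE 0.10, adjusted p = 7.59e-07). Its relative Rnf43, at a far lower level, rose as well, with 0.124 to 0.931 CPM in control and 0.971 to 1.59 with CHX (log2 fold change 1.01, SE 0.34, adjusted p = 0.0119). Axin1 rose from 73.8, 79.3, 81.1 and 73.0 to 96.3, 98.8, 99.6 and 97.7 CPM (log2 fold change 0.35, SE 0.046, adjusted p = 3.33e-07) and Axin2 from 28.4, 30.6, 35.1 and 27.7 to 43.2, 44.8, 45.2 and 40.2 (log2 fold change 0.51, SE 0.081, adjusted p = 5.82e-06). Neither scaffold gene overlapped between the groups. Nkd2 fell, with 1.89 to 2.38 CPM in control and 0.969 to 1.54 with CHX (log2 fold change -0.62, SE 0.23, adjusted p = 0.0209), and Nkd1 did not pass (log2 fold change -0.077, SE 0.14, adjusted p = 0.638). Rnf43 was lost as a call without 6 h control replicate 1 or CHX replicate 1, and Nkd2 without control replicate 3 or CHX replicate 2.

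β-catenin RNA moved little: Ctnnb1 held 2003, 2032, 2039 and 2114 CPM in control and 1832, 1819.9, 1841 and 1813 with CHX, 0.892 of the control level (log2 fold change -0.16, SE 0.040, adjusted p = 0.000823). Tcf7l1, the TCF that acts mainly as a repressor, rose from 52.2, 54.1, 66.9 and 45.5 to 78.6, 79.8, 76.7 and 74.2 CPM (log2 fold change 0.50, SE 0.077, adjusted p = 3.74e-06), and Tcf7l2 from 33.9, 40.5, 39.1 and 32.9 to 52.0, 51.9, 55.4 and 50.6 (log2 fold change 0.52, SE 0.086, adjusted p = 9.83e-06). Both pairs of groups were separate. Tcf7 held 34.1 to 39.6 and 34.0 to 39.5 CPM and did not pass (log2 fold change -0.037, SE 0.078, adjusted p = 0.692), nor did Lef1 (log2 fold change -0.098, SE 0.33, adjusted p = 0.807). Summed astrocyte markers were 10923 to 11743 CPM in control and 8178 to 9770.2 with CHX, oligodendrocyte lineage markers 768 to 885 and 459 to 515, and microglia markers 82.6 to 103 and 50.1 to 74.5, none overlapping, and their part in these results was not tested. Cldn5, a vessel marker that averaged only 0.158 CPM over all libraries, was at 0 in all 4 libraries with CHX alone. The summed vessel markers overlapped, with 227 to 275 CPM in control and 223 to 244 with CHX.

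**Figure D5:**
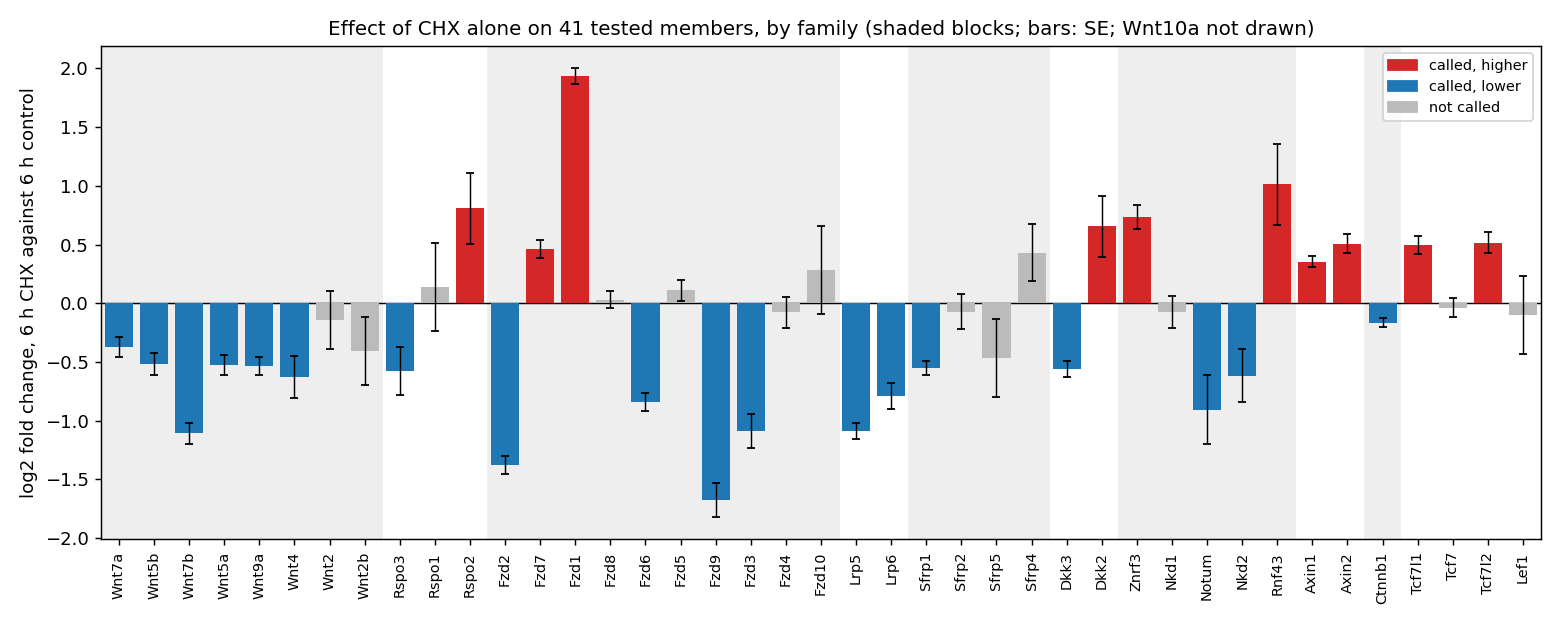
Log2 fold change with CHX alone at 6 h, with SE, for 41 of the 42 tested genes (Wnt10a, near 0 in control, is not drawn). Red bars rose, blue bars fell and grey bars did not pass an adjusted p under 0.05; Fzd1 rose by 1.93 and Fzd9 fell by 1.67 on the log2 scale.

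Between the untreated cultures at 6 h and at 24 h, 27 of the 42 genes differed (64.3%, against 56.6% of all genes). Of these, 13 were higher at 24 h (31.0%, against 28.2%) and 14 lower (33.3%, against 28.4%). Shares so near those of all genes are not a result about these genes, and what follows describes single genes. All 6 h controls were on lane 5 and all 24 h controls on lane 6, so time and lane cannot be told apart in these 8 libraries. In a model with lane as a term, 13 of the 42 genes passed, against 4414 of all 16087 genes (9105 without lane). Only the CHX group had libraries on both lanes 5 and 6. The step between these lanes therefore rests on CHX replicate 4 against CHX replicates 1 to 3. A lane effect and a trait of that 1 library cannot be told apart, so this fit does not separate time from lane either. The comparison shares its 6 h controls with those of T3 and CHX.

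Of the receptors, 6 were lower at 24 h, although the call of Fzd3 was lost in 22 of 33 alternatives. Fzd7 fell most, from 120.2, 111, 134 and 107 CPM at 6 h to 54.3, 47.6, 55.4 and 43.8 at 24 h (log2 fold change -1.23, SE 0.078, adjusted p = 5.86e-12), and Fzd1 held 52.2 to 65.0 and 36.5 to 38.6 CPM (log2 fold change -0.57, SE 0.067, adjusted p = 1.2e-07). Lrp5 was also lower, with 185 to 225 CPM at 6 h and 127 to 137 at 24 h (log2 fold change -0.60, SE 0.065, adjusted p = 3.35e-08). These 3 passed with lane in the model too, unlike Fzd2 (-0.34, and -0.022 with an adjusted p of 0.922 with lane), Fzd3, Lrp6, Sfrp1 and Ctnnb1. Since the lane step rests on CHX replicate 4, neither a pass nor a loss in that fit tells time from lane, here or below. Fzd6 was higher at 24 h, 57.7 to 65.6 against 41.2 to 54.3 CPM (log2 fold change 0.34, SE 0.074, adjusted p = 0.000412), and passed with lane as well. Of the ligands, Wnt2, Wnt2b, Wnt5a and Wnt9a were higher and Wnt5b lower at 24 h. None of these 5 passed with lane in the model.

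Of the secreted inhibitors, Sfrp5, Sfrp2 and Dkk2 were higher at 24 h. Sfrp5 went from 0.742, 0.894, 1.51 and 1.21 CPM at 6 h to 4.59, 5.83, 4.46 and 4.28 at 24 h (log2 fold change 2.13, SE 0.26, adjusted p = 2.14e-07), Sfrp2 from 3.09, 3.58, 3.37 and 4.01 to 7.23, 8.26, 7.28 and 9.07 (log2 fold change 1.19, SE 0.13, adjusted p = 6.99e-08), and Dkk2 from 0.989, 1.31, 0.872 and 0.681 to 3.14, 3.56, 4.89 and 3.37 (log2 fold change 1.94, SE 0.23, adjusted p = 1.8e-07). All 3 pairs were separate. Rspo1 rose from 0.618, 0.298, 0.64 and 0.303 to 1.95, 1.94, 1.28 and 1.71 CPM (log2 fold change 1.85, SE 0.31, adjusted p = 2.15e-05), whereas Rspo3 fell from 2.72, 2.504, 2.79 and 2.65 to 1.07, 0.702, 0.957 and 0.742 (log2 fold change -1.62, SE 0.23, adjusted p = 2.5e-06), the latter only without lane in the model. The feedback inhibitor Nkd1 held 5.45 to 9.90 and 9.70 to 12.0 CPM (log2 fold change 0.47, SE 0.13, adjusted p = 0.00438) and did not pass with lane either. Dkk3 was lower at 24 h, with 74.4 to 91.9 CPM against 100.03 to 117 at 6 h (log2 fold change -0.37, SE 0.065, adjusted p = 4.36e-05). Among the transcription factors, Tcf7 fell from 36.5, 34.1, 38.6 and 39.6 to 21.9, 20.5, 23.8 and 17.97 CPM (log2 fold change -0.82, SE 0.080, adjusted p = 6.68e-09) and Tcf7l1 rose from 52.2, 54.1, 66.9 and 45.5 to 72.2, 68.3, 74.6 and 69.6 (log2 fold change 0.38, SE 0.077, adjusted p = 0.000213), so the share of Tcf7 in the family went from 43.8% of the per-length sum to 25.4%. Summed ependymal markers were 399 to 524 CPM at 6 h and 989 to 1278 at 24 h, and their part in these results was not tested.

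Genes of the pathway outside these families were read from 2 lists, 65 genes of the signalling machinery, of which 60 were tested, and 25 known targets, of which 17 were tested. With T3 at 6 h, 3 machinery genes were higher and 1 lower (6.67% in all, against 3.75% of all genes), with a median log2 change of 0.017, against 0.0028 for all genes. Daam1 and Daam2, formins that link Dishevelled to actin, changed by 0.43 (SE 0.077, adjusted p = 0.00104) and 0.44 (SE 0.079, adjusted p = 0.00104) on the log2 scale. Sostdc1, a secreted antagonist of Wnt and BMP signals, changed by 0.27 (SE 0.069, adjusted p = 0.0235), and Draxin, a secreted guidance protein that also inhibits Wnt signals, by -0.52 (SE 0.11, adjusted p = 0.00398). Among the targets 1 was higher (5.88%, against 3.75% of all genes), Fosl1, named after its value was seen, by 0.61 (SE 0.17, adjusted p = 0.0376).

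At 24 h, 5 machinery genes were higher and 4 lower (9 of 60, against 7.09% of all genes; median -0.045, against 0.0041), and 2 targets were lower. Daam2 changed by 0.93 (SE 0.084, adjusted p = 2.76e-08), Sostdc1 by 0.64 (SE 0.074, adjusted p = 1.54e-06), Draxin by -0.90 (SE 0.11, adjusted p = 5.24e-06) and Ctnnbip1, an inhibitor of β-catenin binding to TCF, by 0.30 (SE 0.061, adjusted p = 0.00191). The targets, named after their values were seen, were Ccnd1, a cyclin that changed by -0.41 (SE 0.093, adjusted p = 0.006), and Ephb3, an ephrin receptor that changed by -0.38 (SE 0.088, adjusted p = 0.00678). With CHX present T3 raised Daam1 by 0.48 (SE 0.076, adjusted p = 0.000452) and Daam2 by 0.38 (SE 0.078, adjusted p = 0.00778). These were 3.33% of the machinery genes, against 1.29% of all genes, and 0 targets passed. The T3 effect differed with and without CHX for Celsr1, a planar polarity cadherin, by 0.80 (SE 0.17, adjusted p = 0.0296), for Draxin by 0.63 (SE 0.15, adjusted p = 0.0431) and for Ccnd1 by 0.54 (SE 0.12, adjusted p = 0.0296). These were the 3 calls in that test, 3.33% of the machinery genes and 5.88% of the targets, against 1.22% of all genes. Leaving out a single library left 0 to 5, with 0 for 6 of the 23 libraries (6 h control replicate 3, T3 replicates 3 and 4, CHX replicate 4, and CHX plus T3 replicates 2 and 3). Between 24 h and 6 h the T3 effect differed for Daam2 alone, by 0.48 (SE 0.12, adjusted p = 0.0451), which is 1.67% of the machinery genes, against 0.839% of all genes. That test gave 0 calls without any 1 of 16 of the 23 libraries, with RLE factors and with the compared groups only.

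CHX alone raised 19 and lowered 26 of the 60 machinery genes (75.0% in all, against 67.5% of all genes; median -0.17, against 0.063) and raised 6 and lowered 3 of the 17 targets (52.9%; median 0.48). Shares near that of all genes are not a result about the lists. Prickle1, a planar polarity protein, changed by 3.15 (SE 0.084, adjusted p = 6.44e-20) and Bmp4, a BMP ligand, by 3.91 (SE 0.12, adjusted p = 3.92e-19), while Ccnd1 changed by -2.31 (SE 0.088, adjusted p = 4.98e-17) and the corepressor Tle1 by -1.46 (SE 0.058, adjusted p = 9.33e-17). Between 6 h and 24 h controls, 14 machinery genes were higher and 22 lower (36 of 60, against 56.6% of all genes), and 1 target was higher and 9 lower (58.8%), with medians of -0.094 and -0.42, against -0.0017. With lane in the model, the 46 calls over both lists became 27. Cd44, a hyaluronan receptor, differed by -1.82 (SE 0.094, adjusted p = 1.73e-13), Ccnd1 by -1.45 (SE 0.085, adjusted p = 1.65e-12), Dvl1, a Dishevelled, by -0.76 (SE 0.058, adjusted p = 1.22e-10) and Draxin by 1.30 (SE 0.10, adjusted p = 3.06e-10).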

How the data were processed

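Libraries were made from 200 ng of total RNA with a kit that marks no strand and sequenced as single reads of 50 nt, per the labels' protocols. Reads had been aligned and counted with tools that the submitters' processing notes list without versions (TopHat, Bowtie, HTSeq and edgeR, with FastQC and bcl2fastq, on build GRCm38). The HTSeq settings were not given in the sources used here, nor the annotation release. The authors deposited 1 table of unnormalized counts for every library, with Ensembl identifiers. The 38293 identifiers per file were named from GENCODE M21, which holds 36429 of them. The closing lines that name no gene stayed out: reads without a feature were 3.75 to 5.81% of a library, reads that fit several genes 1.40 to 1.71%, and non-unique alignments 30.7 to 42.3%. The last are not counted to genes, which lowers genes with near-identical copies.

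Genes were kept by filterByExpr (minimum count 10), which left 16087. Counts were scaled by TMM and fitted in edgeR 4.0.16 (R 4.3.3) with 1 mean per group over all 23 libraries, 17 residual degrees of freedom and a biological coefficient of variation of 8.57%. Quasi-likelihood F tests were adjusted by Benjamini-Hochberg over all tested genes and called under 0.05. SE is the size of the log2 change divided by the square root of F. CPM use TMM-scaled library sizes, and CPM per kilobase divide by the merged exon length. The script was tested on simulated counts. Alternatives were DESeq2 1.42.0, RLE factors, no filter, lane as a term, a replicate block, a length and GC trend removed, only the compared groups, and leaving out libraries. The block by the letter in the sample descriptions and the fit without 24 h control replicates 2 and 4 were added after seeing the data.

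The genes and lists were chosen with earlier results of these data known. Per-library values are given for the 30 called genes with the smallest adjusted p, and up to 4 other pathway genes are named per comparison. Replicate numbers did not pair the samples. Same-numbered libraries of different groups correlated between -0.285 and 0.334 (median 0.0183 over 55 pairs), against a median of -0.00693 for 165 pairs with different numbers.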

Additional observations from a re-analysis of the deposited data

Results flagged for a closer look

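Among the named genes, 150 groups of 4 libraries were examined for a library far from the other 3, and 8 had one. Chance flags about 1 in 20 groups, which is 7.5 here. Dkk3 was high in 6 h control replicate 3 (116.8 CPM, others up to 102.3) and in CHX plus T3 replicate 1 (70.41). Sfrp1 was low in 6 h control replicate 4 (209.2) and in CHX replicate 4 (158.6), the CHX library on another lane. That CHX library was also high in Sfrp2 (3.775) and low in Wnt4 (2.535). Tcf7l2 was high in CHX plus T3 replicate 3 (64.49), and Wnt10a had its only control read in 6 h control replicate 3 (0.05816). The T3 effect on Wnt4 differed between 24 h and 6 h by 1.42 on the log2 scale (edgeR adjusted p = 0.00386).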

How the results depend on the processing

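Over 33 alternatives, the calls that never failed were 3 of 6 for T3 at 6 h (Wnt7a, Wnt7b, Fzd9), 6 of 8 at 24 h (all but Sfrp5 and Fzd6), 1 of 3 with CHX (Fzd1), 24 of 29 for CHX alone, 11 of 27 between the controls and 1 of 1 for the difference between times (Wnt4). No call changed sign. Leaving out each of 23 libraries gave 4 to 8 calls for T3 at 6 h, 7 to 9 at 24 h, 1 to 6 with CHX, 26 to 30 for CHX alone, 0 to 5 and 1 to 3 for the differences with CHX and with time, and 23 to 29 between controls. For the other pathway genes these ranges were 3 to 10, 9 to 13, 1 to 3, 52 to 59, 0 to 5, 0 to 2 and 41 to 47. The cause of the following shifts was not tested. Calls for T3 with CHX (3) became 1 with lane, 5 without 24 h control replicates 2 and 4, in DESeq2 or after removing a length and GC trend, and 8 with the compared groups only. The difference with CHX (0 calls) gave 2 with lane, without those controls or with compared groups only, 1 with the letter block, 6 with the trend removed and 4 in DESeq2. The difference with time (1) gave 2 with the trend removed or in DESeq2, and the control comparison (27) gave 13 with lane. Other pathway genes for T3 at 6 h (5) became 9 with lane, 10 with the replicate block or DESeq2, 11 with the letter block or without 24 h T3 replicate 1 and CHX replicate 4, 13 with the trend removed and 8 with compared groups only. At 24 h (11) they became 7 without those controls and 4 with compared groups only, and with CHX (2) 5 with lane or the trend removed and 7 with compared groups only. For the difference with CHX (3) they became 10 with lane, 7 with the trend removed, and 6 in DESeq2, with either block or with compared groups only. For the difference with time (1) they became 3 with lane or in DESeq2, 2 with the trend removed, and 0 with RLE factors, with compared groups only or without those controls. Between controls (46) they became 27 with lane.

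With the replicate block, which the numbers do not support as a pairing, calls were 9 for T3 at 6 h, 9 at 24 h, 4 with CHX, 29 for CHX alone, 0 and 1 for the differences, and 26 between controls. Genes with few reads are limited by depth: 15 of the 57 could not be tested.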
